A study of Mus musculus with 20 samples.

Results

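The insulin-like growth factor (IGF) system was followed through 10 genes of the mouse abdominal aorta: the ligands Igf1 and Igf2, the receptors Igf1r and Igf2r, and the binding proteins Igfbp2, Igfbp3, Igfbp4, Igfbp5, Igfbp6 and Igfbp7. The members were a list of gene symbols, and a transcript belonged to a member when GENCODE M21 gave that symbol for its Ensembl identifier. All 10 were listed, among 15346 genes in all, through 19 transcripts out of 34552. Each level is in the deposited unit, FPKM, which divides a transcript's fragments by its length and the depth of its library, and a gene's level is the sum over its listed transcripts.

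The study took RNA from mice labelled wild type (WT) or KO, given saline or angiotensin II (Ang II), a vasoconstrictor peptide used to bring on hypertension. Its title names DAPK1, a calcium/calmodulin-dependent protein kinase, as the gene under study. The groups used here were WT saline (WTNS_369, WTNS_373, WTNS_523, WTNS_547 and WTNS_550), WT Ang II (WTAng_II519, WTAng_II536, WTAngII568, WTAngII580 and WTAngII581) and KO Ang II (KOAng_II402, KOAngII537, KOAngII560, KOAngII612 and KOAngII628), each named by its sample title, whose number is the animal. Both Ang II groups received 500 ng per kg per min. The labels and protocols give no strain, sex, age, KO allele or length of infusion. The 5 KO saline libraries were not analysed, because their tables list only 2025 transcripts and none of a member.

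IGF1 and IGF2 signal for growth and survival through IGF1R, a receptor tyrosine kinase that acts through PI3K and AKT. IGF2R, the cation-independent mannose 6-phosphate receptor, takes up IGF2 for breakdown in lysosomes and carries lysosomal enzymes. The binding proteins hold IGFs in blood and matrix, extend their half-life and limit or aid their access to the receptor, and in arteries the ligands act on smooth muscle growth and survival.

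The 15 libraries had 59.0 to 74.4 megareads each, a depth worked out from the steps between low values. Over the 12645 genes tested, the mean Pearson's r between libraries was 0.911 within groups and 0.907 between groups. Dapk1 did not check the labels: it was at 12.1 ± 2.39 FPKM (SD, n = 5) in WT saline, 10.7 ± 5.80 in WT Ang II and 8.58 ± 3.51 in the KO Ang II group, and the groups overlapped. KO is therefore only the label of those libraries, and every direction drawn from it below rests on the label. The tissue label fitted its markers, since the 7 smooth muscle genes added up to 5365 to 14097 FPKM in each library. Other tissue was present too: 6 brown adipocyte genes summed to 119 to 2950 FPKM, and 8 intestinal epithelium genes to 22.4 to 52.9 FPKM in the KO Ang II libraries. The intestinal sum was 16.3 in WTAngII580, 15.5 in WTAngII581 and 0.0799 to 0.773 in the other 8 WT libraries. In WT saline 7 of the 8 genes were at 0, which is also the value given to unlisted transcripts.

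Isoforms of Igfbp7, the most abundant member, and of Igf1 differ by an exon of the coding sequence, and both exons are shown because the isoform levels below rest on them. Igfbp7-202 has an extra exon of 93 bases, the 2nd of its 6 exons, at chr5:77401487-77401579 on the minus strand (GRCm38), which Igfbp7-201 lacks. The exon keeps the reading frame and both transcripts share their stop codon. Igf1-203 and Igf1-206 have an exon of 52 bases at chr10:87915298-87915349 on the plus strand, which Igf1-202 lacks. That exon shifts the frame, so these transcripts end at another stop codon. It lies beyond the part that codes for mature IGF1, in the region of the E peptides that are cleaved off the precursor. Both are read from GENCODE M21 transcripts, with the exon in capitals and 12 bases of the neighbouring exons on each side in lower case.
Igfbp7 exon 2 of Igfbp7-202: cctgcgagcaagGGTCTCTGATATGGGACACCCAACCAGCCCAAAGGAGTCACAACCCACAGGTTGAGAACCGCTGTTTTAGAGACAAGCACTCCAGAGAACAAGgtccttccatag
Igf1 exon 4 of Igf1-203: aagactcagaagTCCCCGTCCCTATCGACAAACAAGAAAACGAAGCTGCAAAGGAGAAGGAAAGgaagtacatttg
Of the 69 windows of 25 bases in the Igfbp7 exon, 9 also occurred in annotated transcripts of 3 other genes on either strand, and of the 28 in the Igf1 exon none did.

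Igf2 has several start sites, and its 3 listed transcripts begin at different first exons. The promoters of Igf2-201 and Igf2-204 are shown because the part of each in the Igf2 sum differed most between libraries. Both sequences are from RefSeq on GRCm38.p6, from 250 bases before to 50 bases after a start site on the minus strand, with each TATAAA or GGGCGG motif on either strand in capitals. The window for Igf2-201 is chr7:142657447-142657746, whose start site is that of the transcript. The window for Igf2-204 is chr7:142661222-142661521, whose start site lies 34 bases from that of the transcript.
Igf2-201 promoter: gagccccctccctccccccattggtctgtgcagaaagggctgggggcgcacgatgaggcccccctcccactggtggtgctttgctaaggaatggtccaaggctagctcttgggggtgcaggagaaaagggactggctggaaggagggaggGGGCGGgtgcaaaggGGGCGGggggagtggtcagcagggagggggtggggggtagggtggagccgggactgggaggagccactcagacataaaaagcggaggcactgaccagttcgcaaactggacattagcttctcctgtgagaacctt
Igf2-204 promoter: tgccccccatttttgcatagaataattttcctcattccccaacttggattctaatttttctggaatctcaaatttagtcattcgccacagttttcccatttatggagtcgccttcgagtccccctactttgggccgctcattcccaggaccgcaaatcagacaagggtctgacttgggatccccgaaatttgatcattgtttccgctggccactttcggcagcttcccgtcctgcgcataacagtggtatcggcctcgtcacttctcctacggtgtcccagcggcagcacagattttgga
GGGCGG, the core of the GC box, occurred 2 times in the Igf2-201 window and not in the Igf2-204 window, and TATAAA in neither. Of 32851 RefSeq promoter windows of this length, 35.7% held GGGCGG and 13.6% held TATAAA. Among the members, TATAAA was found in the windows of Igfbp4, 28 bases before the start site, and of Igfbp6, on the opposite strand.

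Igfbp7 stood far above the other members, with a mean of 1235 ± 326 FPKM (SD, n = 15), above 99.7% of the tested genes. Igfbp6 followed at 117 ± 31.0, Igfbp5 at 101 ± 32.2 and Igfbp4 at 79.9 ± 34.2. Igf2r was at 21.3 ± 3.99, Igfbp2 at 14.6 ± 10.5 and Igfbp3 at 12.2 ± 5.62. The ligands were lower, Igf2 at 8.62 ± 4.31 and Igf1 at 4.81 ± 2.30, and Igf1r was lowest at 3.30 ± 1.70. Neighbours in this order were not all separate. Igfbp7 was above Igfbp6, and Igfbp4 above Igf2r, in 15 of 15 libraries, whereas Igfbp6 was above Igfbp5 in 10, Igfbp2 above Igfbp3 in 5 and Igf1 above Igf1r in 10. Per length, 4 of the binding proteins were thus more abundant than either ligand or receptor, and Igfbp7 made up 69.4% to 87.0% of the summed FPKM of the 6 binding proteins. Levels differed most between libraries for Igfbp2, whose highest value was 12.3 times its lowest, and least for Igf2r, at 2.03 times.

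**Figure D1:**
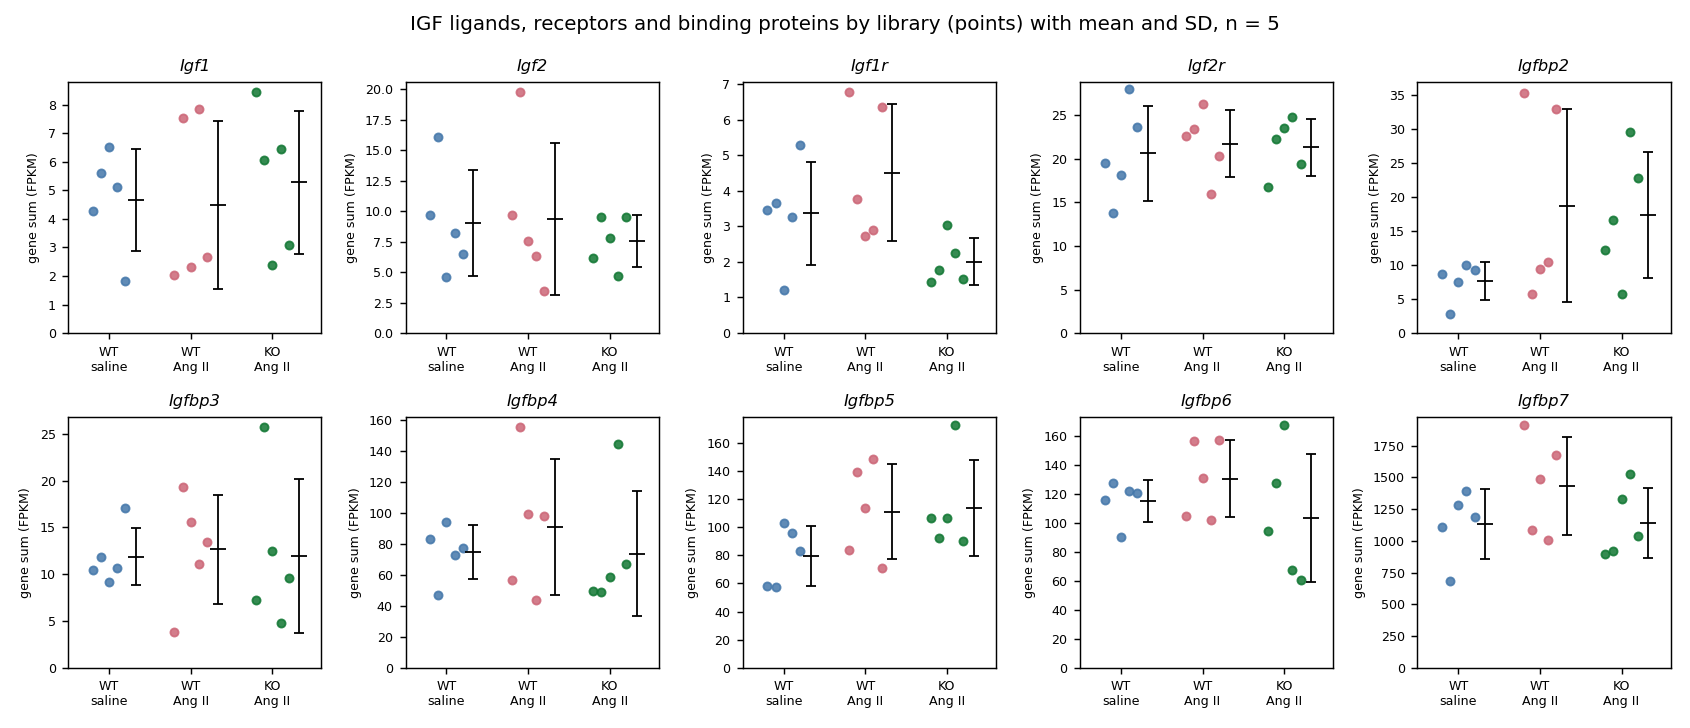
Gene level (FPKM, linear axes that start at 0, one panel a gene) of the 10 members in each of 15 libraries (points) with the mean and SD of each group (bars, n = 5). The groups overlap in every panel; 4 of the 5 KO Ang II points of Igf1r lie below all WT Ang II points, and 4 of the 5 KO Ang II points of Igfbp2 lie above all WT saline points.

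No member passed the test in any comparison, and no member had groups without overlap. The test was limma on log2(FPKM + 1) over all genes tested, with a threshold of 0.05 on the Benjamini-Hochberg adjusted p. For WT Ang II against WT saline 0.0% of genes passed, so a count of 0 among the members was the background. For KO Ang II against WT Ang II it was 0.0% again, and for KO Ang II against WT saline 0.103%, or 13 genes. The unadjusted p was under 0.05 for 4.88%, 7.94% and 8.37% of the tested genes in those comparisons, and for 0, 1 and 0 of the 10 members. The groups did not overlap for 0.996%, 1.12% and 1.83% of the tested genes and for none of the members. The comparisons share groups: WT Ang II is in the first pair of them, KO Ang II in the last pair and WT saline in the first and the last. In bulk tissue, fewer cells of a type and less RNA per cell cannot be told apart.

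The members lay higher in 7 and lower in 3 for WT Ang II against WT saline, with a median difference of 0.17 on the log2(FPKM + 1) scale beside 0.01 over all tested genes. For KO Ang II against WT Ang II 3 were higher and 7 lower, with a median of -0.13 beside -0.01. Against WT saline, KO Ang II had 5 higher and 5 lower, with a median of -0.05 beside 0.02. Standard errors of the differences ran from 0.18 for Igf2r to 0.51 for Igfbp2, so that the precision differed between members. The 95% interval of Igf2r lay within -0.40 and 0.47 in all 3 comparisons.

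**Figure D2:**
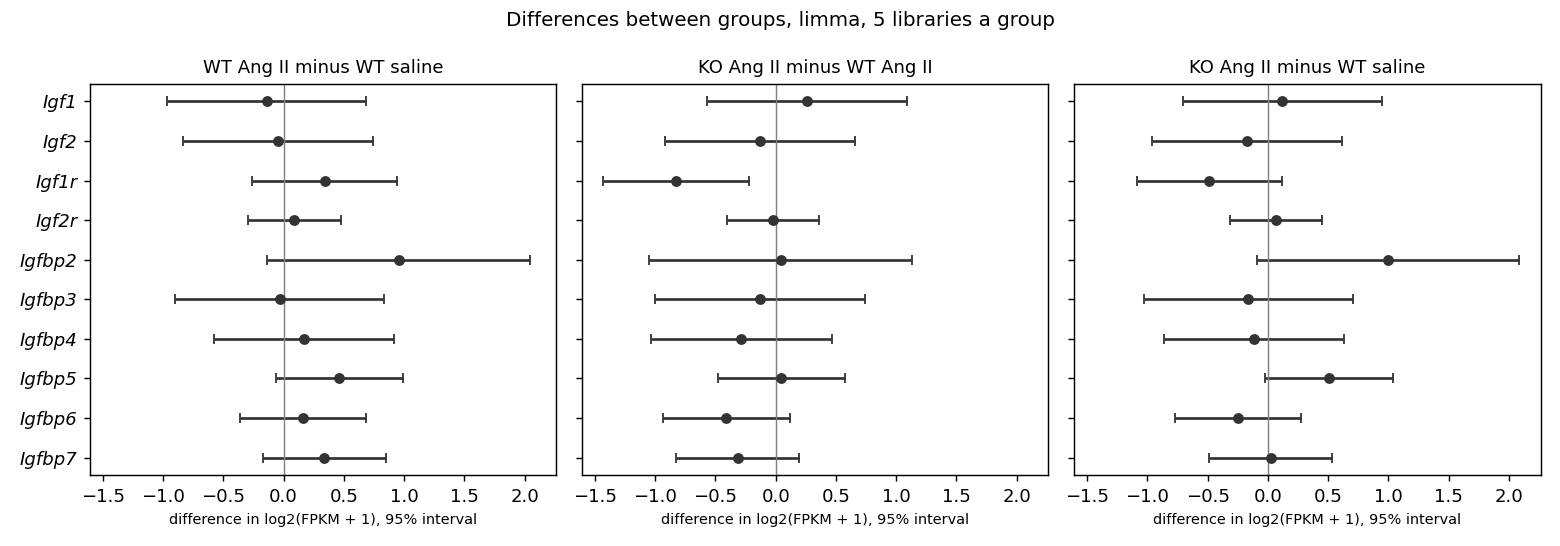
Difference in log2(FPKM + 1) between groups (x axis) for each member (y axis) with its 95% interval from limma, one panel a comparison, 5 libraries a group. The interval of Igf1r in KO Ang II minus WT Ang II, from -1.43 to -0.22, is the one that does not cross 0, and its adjusted p is 0.611.

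Igf1 (ENSMUSG00000020053, chr10:87858265-87937042, plus strand) codes for the ligand that growth hormone induces in liver and that many tissues also make locally. Its level was 4.27, 5.62, 6.52, 5.12 and 1.83 FPKM in WTNS_369, WTNS_373, WTNS_523, WTNS_547 and WTNS_550. It was 2.02, 7.55, 2.33, 7.84 and 2.68 in WTAng_II519, WTAng_II536, WTAngII568, WTAngII580 and WTAngII581, and 8.44, 6.06, 2.39, 6.44 and 3.10 in KOAng_II402, KOAngII537, KOAngII560, KOAngII612 and KOAngII628. WT Ang II had 2 libraries above all of WT saline and 3 near its lowest value, and its mean (4.48 ± 2.94, SD, n = 5) was close to that of WT saline (4.67 ± 1.79). The difference was -0.14 (SE 0.39, adjusted p = 0.969 in limma), and KO Ang II was higher than WT Ang II by 0.26 (SE 0.39, adjusted p = 0.850). With the brown adipocyte, skeletal muscle and sympathetic neuron marker means as covariates, called the 3 marker covariates below, the latter was 0.051. Against WT saline KO Ang II was higher by 0.12 (adjusted p = 0.961), a direction that turned to -0.0079 with only the transcripts listed in all 15 libraries and to -0.015 with unlisted transcripts at 0.5 FPKM.

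Igf1-202, without the 52-base exon, ran from 0.836 to 6.90 FPKM. It made up 62.5%, 72.5%, 72.3%, 93.6% and 67.8% of Igf1 in WT saline, 41.4%, 89.6%, 42.3%, 88.1% and 38.5% in WT Ang II and 77.5%, 52.9%, 41.5%, 38.4% and 37.9% in the KO Ang II group. Of the shares, 3 of 5 in WT Ang II and 4 of 5 in KO Ang II were below all of WT saline, and they were not tested. Igf1-203, which has that exon, was at 0.604 ± 0.237 FPKM in WT saline, 0.455 ± 0.0999 in WT Ang II and 1.21 ± 0.904 in the KO Ang II group (SD, n = 5). The KO Ang II values of Igf1-203 were 0.835, 2.69, 0.519, 1.43 and 0.569, of which 3 were above all 5 WT Ang II values. Igf1-203 was below the filter of a mean of 1 FPKM and was not tested. Igf1-206, with the same exon, was between 0 and 1.39 FPKM in all 15 libraries. Igf1-201 was listed in the KO Ang II table alone, at 0.165 to 1.38 FPKM, and counts as 0 in the WT groups. The Igf1 sum therefore includes Igf1-201 in the KO Ang II libraries only, which lowers their Igf1-202 shares. In KOAngII612 Igf1-201 was 1.38 of the 6.44 FPKM of Igf1.

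Igf2 (ENSMUSG00000048583, chr7:142650766-142666816, minus strand) codes for the fetal growth ligand and is an imprinted gene, expressed in most tissues from the paternal copy. Its level was 9.66, 16.1, 4.63, 8.23 and 6.51 FPKM in WT saline, 9.64, 19.7, 7.54, 6.28 and 3.45 in WT Ang II and 6.12, 9.49, 7.80, 4.64 and 9.50 in the KO Ang II group, in the order of libraries given for Igf1. The highest libraries were WTAng_II536 and WTNS_373, and all KO Ang II values lay inside the range of the other groups. The differences were -0.04 (SE 0.37, adjusted p = 0.988) for WT Ang II against WT saline and -0.13 (SE 0.37, adjusted p = 0.932) for KO Ang II against WT Ang II, in limma, and -0.17 (adjusted p = 0.938) for KO Ang II against WT saline. The mean FPKM of WT Ang II was 1.03 times that of WT saline, the other way from the log difference. Across the 15 libraries, with group means removed, Igf2 correlated with the mean of 6 endothelial genes at r = 0.86. Without the 2 libraries whose endothelial mean lay farthest from that of their group, r was 0.67. This is a description: the points share the makeup of each library. WTAng_II536 and WTNS_373 also had the highest endothelial sums, at 498 and 312 FPKM, beside 118 to 252 in the other 13 libraries, and the part of cell makeup in the Igf2 values was not tested.

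The 3 listed transcripts of Igf2 did not keep to fixed parts of the sum. Igf2-201, whose promoter holds the 2 GGGCGG motifs shown above, was at 2.06, 2.52, 1.62, 3.50 and 3.10 FPKM in WT saline, 1.28, 4.24, 1.41, 1.52 and 1.06 in WT Ang II and 3.07, 3.78, 5.83, 2.67 and 2.54 in the KO Ang II group. All 5 KO Ang II values were above 4 of the 5 WT Ang II values, and WTAng_II536 was the exception. The difference, KO Ang II minus WT Ang II, was 0.71 (SE 0.27, 95% interval 0.13 to 1.28), with an unadjusted p of 0.0194 and an adjusted p of 0.712 in limma, so it did not pass. Over all alternative settings that adjusted p ran from 0.359 to 0.915. For transcripts in this comparison 0.00482% passed, 6.85% had an unadjusted p under 0.05 and 1.01% had groups without overlap, and among the 13 tested transcripts of members these were 0, 2 and 0. For WT Ang II against WT saline 0.00963% of transcripts passed, 5.32% had an unadjusted p under 0.05 and 0.997% did not overlap, with 0 of the 13 in each. Between KO Ang II and WT saline those shares were 0.0722%, 6.64% and 1.41%, again with 0 of the 13.

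As a share of Igf2, Igf2-201 was 32.4% ± 13.7 in WT saline, 21.7% ± 6.52 in WT Ang II and 49.8% ± 18.1 in the KO Ang II group (SD, n = 5). The KO Ang II shares were 50.2%, 39.9%, 74.7%, 57.5% and 26.7%, of which 4 were above all 5 WT Ang II shares of 13.3%, 21.5%, 18.7%, 24.2% and 30.8%. These shares were set out after the values were seen and were not tested. Igf2-204 ranged more widely, from 0 to 85.7% of Igf2, with a listed value of 0 in WTNS_547 and KOAngII612. Igf2-205 held 1.06% to 57.5%. The 3 transcripts share their later exons, and how reads from shared exons were divided is not stated. In GENCODE M21, Gm49394 and Mir483 on the same strand and Igf2os on the other strand overlap Igf2. Gm49394 and Igf2os also run past its end.

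**Figure D3:**
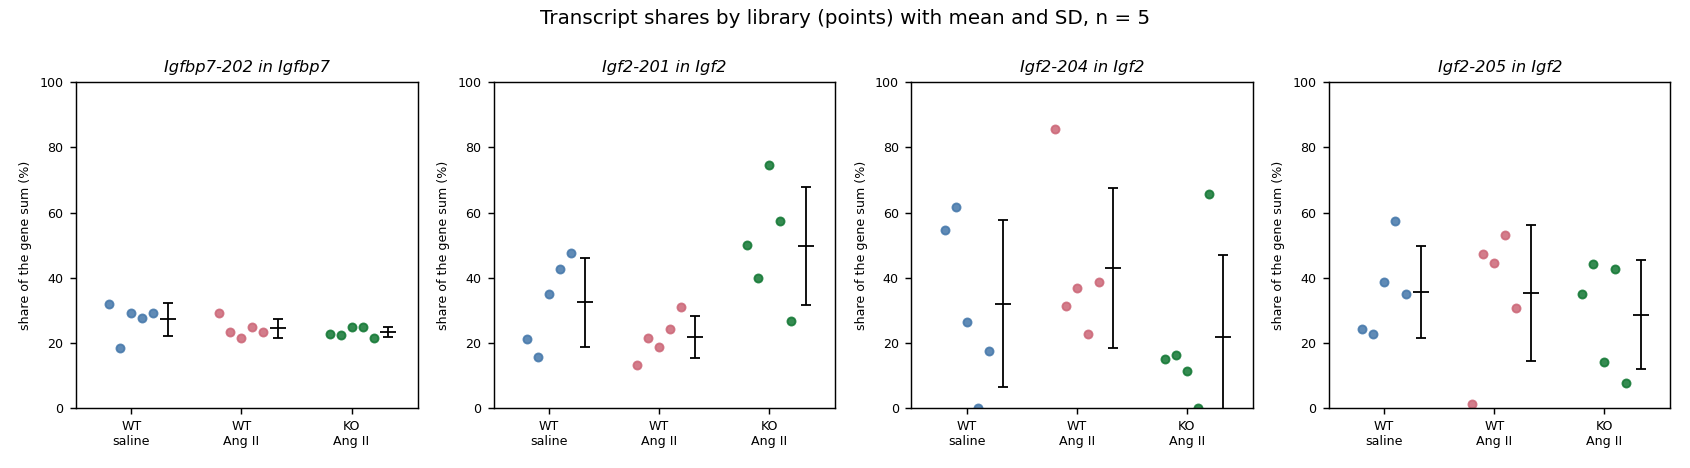
Share (%) of the gene's summed FPKM held by Igfbp7-202, Igf2-201, Igf2-204 and Igf2-205 in each library (points) with mean and SD (bars, n = 5). Igfbp7-202 stays between 18.5% and 31.7% of Igfbp7, while the Igf2 transcripts span 0 to 85.7% of Igf2.

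Igf1r (ENSMUSG00000005533, chr7:67952827-68233668, plus strand), the receptor tyrosine kinase for IGF1 and IGF2, had the smallest unadjusted p of the members. Its level was 3.45, 3.65, 1.21, 3.25 and 5.29 FPKM in WT saline, 6.78, 3.78, 2.73, 2.91 and 6.35 in WT Ang II and 1.44, 1.79, 3.04, 2.27 and 1.53 in the KO Ang II group. In KO Ang II, 4 of 5 libraries were below all of WT Ang II, and KOAngII560 lay above WTAngII568 and WTAngII580. KO Ang II minus WT Ang II was -0.83 (SE 0.28, 95% interval -1.43 to -0.22) on the log2(FPKM + 1) scale. The ratio of mean FPKM, a separate measure to which that interval does not belong, was 0.446. The unadjusted p was 0.0106 and the adjusted p in limma 0.611, so Igf1r did not pass, and 217 tested genes had a smaller p. That adjusted p ran from 0.131 to 0.872 over all alternative settings. Without WTAngII580 and WTAngII581, the WT libraries with the highest intestinal sums, the difference was -0.81. All KO Ang II libraries held intestinal transcripts, at 22.4 to 52.9 FPKM. That fit therefore cannot tell the KO label and the intestinal transcripts apart.

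WT Ang II lay above WT saline by 0.34 for Igf1r (SE 0.28, adjusted p = 0.941), with WTAng_II519 and WTAngII581 above all of WT saline. With the 3 marker covariates it was 0.10. For Igf1r the difference of KO Ang II from WT saline was -0.49 (SE 0.28, 95% interval -1.09 to 0.12, adjusted p = 0.700), with every KO Ang II value inside the WT saline range. Igf1r-201, the full receptor transcript, made up 60.3% to 88.0% of the sum. Igf1r-201 showed -0.87 for KO Ang II minus WT Ang II (SE 0.31, unadjusted p = 0.0139, adjusted p = 0.712). The rest was Igf1r-205, annotated as a retained intron, at 0.449 to 1.22 FPKM. Its mean level was 0.880 ± 0.246 in WT Ang II and 0.613 ± 0.274 in the KO Ang II group, which overlapped. Igf1r did not follow any of the marker lists closely, the strongest being r = -0.55 with skeletal muscle genes.

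Igf2r (ENSMUSG00000023830, chr17:12682406-12769664, minus strand), the scavenger receptor of IGF2, had the most even level of the members. Its lowest, median and highest levels were 13.8, 19.5 and 28.1 FPKM with saline, 16.0, 22.7 and 26.3 in the WT animals on Ang II, and 16.7, 22.3 and 24.8 in the KO animals, with means of 20.7 ± 5.44, 21.7 ± 3.83 and 21.4 ± 3.27 (SD, n = 5). The groups overlapped almost fully. The differences were 0.09 (WT Ang II minus WT saline), -0.02 (KO Ang II minus WT Ang II) and 0.07 (KO Ang II minus WT saline), each with an SE of 0.18 and adjusted p of 0.961, 0.982 and 0.947 in limma. Igf2r is imprinted in mouse, and Airn, the RNA of the opposite strand that silences its paternal copy, overlaps its start. Airn was at 1.04 to 9.85 FPKM here, and reads of the pair cannot be told apart where counting ignored strand, which is not stated.

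Igfbp2 (ENSMUSG00000039323, chr1:72824503-72852474, plus strand), a binding protein with an integrin-binding motif that circulates at high levels in fasting and early life, had the largest differences from WT saline. Its level was 8.70, 2.86, 7.59, 9.96 and 9.33 FPKM in WT saline, 35.3, 5.79, 9.42, 10.4 and 33.0 in WT Ang II and 12.3, 16.7, 5.70, 29.7 and 22.9 in the KO Ang II group. WTAng_II519 and WTAngII581 were far above the other 3 of their group, and 4 of 5 KO Ang II values were above all of WT saline. Mean levels were 7.69 ± 2.84, 18.8 ± 14.2 and 17.4 ± 9.27 (SD, n = 5). WT Ang II minus WT saline was 0.95 (SE 0.51, 95% interval -0.13 to 2.04, unadjusted p = 0.0813, adjusted p = 0.941 in limma). KO Ang II minus WT saline was 1.00 (SE 0.51, 95% interval -0.09 to 2.09, unadjusted p = 0.0700, adjusted p = 0.653).

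KO Ang II minus WT Ang II was 0.04 for Igfbp2 on the log scale, with an interval from -1.05 to 1.13, while the mean FPKM ran the other way, with a ratio of KO to WT of 0.929. Without any 1 library the difference of WT Ang II from WT saline ran from 0.66 to 1.26 and that of KO Ang II from WT saline from 0.73 to 1.32. WTAng_II519 and WTAngII581, the highest for Igfbp2 in WT Ang II, were also the highest there for Igf1r and Igfbp7. With the 3 marker covariates the differences of Igfbp2 were 0.57 (WT Ang II minus WT saline), 0.46 (KO Ang II minus WT Ang II) and 1.03 (KO Ang II minus WT saline). With group means removed, the marker lists whose r with Igfbp2 lay farthest from 0 over the 15 libraries, which share depth and makeup, were endothelium at -0.72, hepatocyte at -0.66, white adipocyte at -0.54, Schwann at -0.47 and brown adipocyte at -0.41. The highest were smooth muscle and macrophage, both at 0.38. Igfbp5 is its neighbour, 5457 bases away and on the opposite strand.

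Igfbp5 (ENSMUSG00000026185, chr1:72857932-72874884, minus strand) codes for a binding protein that adheres to matrix. Its level was 58.3, 57.3, 103, 95.8 and 83.3 FPKM in WT saline, 83.9, 139, 113, 148 and 70.9 in WT Ang II and 107, 92.0, 107, 173 and 90.5 in the KO Ang II group. In each Ang II group 3 libraries were above all of WT saline, and the remaining ones lay inside its range. The 7 macrophage genes summed to between 98.6 and 169 FPKM with saline, between 174 and 249 in the WT animals on Ang II and between 129 and 255 in the KO animals, and r with Igfbp5 was 0.62 over the 15 libraries and 0.44 with group means removed. With group means removed, r with the macrophage genes was higher for Igf2r (0.62), Igfbp7 (0.53) and Igfbp4 (0.49). With the group means kept, it was 0.57 for Igfbp2 and 0.56 for Igf2r and Igfbp7. The part of macrophage RNA in the Igfbp5 differences was not tested. WT Ang II minus WT saline was 0.46 (SE 0.25, 95% interval -0.06 to 0.99, unadjusted p = 0.0811, adjusted p = 0.941 in limma). Between KO Ang II and WT saline it was 0.51 (SE 0.25, 95% interval -0.02 to 1.04, unadjusted p = 0.0580, adjusted p = 0.622). Without the animals numbered below 500 (2 of WT saline and 1 of KO Ang II) these differences were 0.19 and 0.24. The Ang II groups differed by 0.05 (95% interval -0.48 to 0.57).

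Igfbp3 (ENSMUSG00000020427, chr11:7206086-7213923, minus strand) codes for the main carrier of IGFs in blood. Its lowest, median and highest levels were 9.21, 10.7 and 17.1 FPKM with saline, 3.82, 13.4 and 19.3 in the WT animals on Ang II, and 4.77, 9.55 and 25.7 in the KO animals. The means were 11.9 ± 3.06, 12.7 ± 5.80 and 11.96 ± 8.19 (SD, n = 5), and the differences lay between -0.16 and -0.03 with an SE of 0.41 each. For both Ang II groups against WT saline the mean FPKM ran the other way from these log differences, with ratios of 1.07 and 1.01. With the 3 marker covariates the differences of Igfbp3 were 0.31 (WT Ang II minus WT saline), -0.67 (KO Ang II minus WT Ang II) and -0.36 (KO Ang II minus WT saline). The spread of Igfbp3 was wider in both Ang II groups than in WT saline, as a CV of 45.8% and 68.5% beside 25.8%, and this contrast of spreads was not tested.

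Igfbp4 (ENSMUSG00000017493, chr11:99041244-99054392, plus strand) codes for a binding protein that blocks IGF action and is cleaved by the protease PAPP-A. It was at 83.2, 47.1, 94.6, 72.9 and 77.4 FPKM in WT saline, 56.9, 156, 99.2, 43.8 and 98.2 in WT Ang II and 49.9, 48.9, 58.8, 145 and 67.2 in the KO Ang II group. A single library stood above the rest of each Ang II group, WTAng_II536 in WT and KOAngII612 in KO. Its differences were 0.17 (SE 0.35, adjusted p = 0.962), -0.28 (SE 0.35, adjusted p = 0.809) and -0.11 (SE 0.35, adjusted p = 0.959) for the 3 comparisons in the order used above. Igfbp4-201 held 96.3% to 99.6% of the sum.

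Igfbp6 (ENSMUSG00000023046, chr15:102144362-102149511, plus strand) codes for the binding protein that prefers IGF2 over IGF1. It was at 116, 128, 90.3, 122 and 121 FPKM in WT saline, 105, 157, 131, 102 and 158 in WT Ang II and 94.2, 128, 168, 67.9 and 60.8 in the KO Ang II group. KO Ang II held both the highest library of all 15 and the lowest 2. The Ang II groups, KO minus WT, differed by -0.41 (SE 0.24, 95% interval -0.93 to 0.11, unadjusted p = 0.116, adjusted p = 0.643 in limma). The other differences were 0.16 for WT Ang II minus WT saline (adjusted p = 0.952) and -0.25 for KO Ang II minus WT saline (adjusted p = 0.857). With the 3 marker covariates the 3 differences of Igfbp6 were 0.17, -0.67 and -0.50 in the order of comparisons used above.

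Igfbp7 (ENSMUSG00000036256, chr5:77349240-77408041, minus strand) codes for a secreted matrix protein that binds IGFs weakly and is abundant in vessel walls. Its level was 1111, 681, 1282, 1396 and 1184 FPKM in WT saline, 1913, 1084, 1484, 1008 and 1678 in WT Ang II and 899, 919, 1328, 1523 and 1039 in the KO Ang II group. WT Ang II had 3 libraries above all of WT saline, and the KO Ang II libraries lay within the WT Ang II range or below it. WT Ang II minus WT saline was 0.34 (SE 0.24, 95% interval -0.17 to 0.85, adjusted p = 0.941 in limma) and KO Ang II minus WT Ang II -0.32 (SE 0.24, 95% interval -0.83 to 0.20, adjusted p = 0.690). The difference of KO Ang II from WT saline was 0.02 (95% interval -0.49 to 0.53).

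Within groups, the Igfbp7 level followed the smooth muscle genes and ran against the fat genes and the endothelial genes. With group means removed, r over the 15 libraries was 0.90 with the mean of 7 smooth muscle genes. Without the 2 libraries whose smooth muscle mean lay farthest from that of their group, it was 0.82. With 6 white adipocyte genes r was -0.93, and with 6 brown adipocyte genes -0.89. It was -0.79 with endothelial genes, -0.63 with hepatocyte genes and 0.53 with macrophage genes. WTNS_373, the lowest for Igfbp7, had a smooth muscle sum of 5565 FPKM and the highest brown adipocyte sum, 2950. WTAng_II519, the highest for Igfbp7, had the highest smooth muscle sum, 14097, and the lowest brown adipocyte sum, 119. With the 3 marker covariates WT Ang II minus WT saline for Igfbp7 went from 0.34 to 0.015. KO Ang II minus WT Ang II went from -0.32 to -0.042 and KO Ang II minus WT saline from 0.02 to -0.027. The brown adipocyte mean, with its r of -0.89 to Igfbp7, is among those covariates, and the points share the makeup of each library. The part of tissue makeup in the Igfbp7 differences was not tested.

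Igfbp7-202, with the extra exon, was assigned reads in every library. Igfbp7-202 was at 353, 126, 372, 386.7 and 344 FPKM in WT saline, 557, 253, 316, 249 and 393 in WT Ang II and 205, 205, 330, 377 and 224 in the KO Ang II group. It made up 27.2% ± 5.07 of Igfbp7 in WT saline, 24.4% ± 2.92 in WT Ang II and 23.2% ± 1.46 in the KO Ang II group (SD, n = 5), and the shares of the groups overlapped. WTNS_373 had the lowest share, 18.5%, and WTNS_369 the highest, 31.7%. The differences of Igfbp7-202 were 0.20, -0.38 and -0.18 (SE 0.32 each) and those of Igfbp7-201 were 0.40, -0.29 and 0.10 (SE 0.21 each), in the order of comparisons used above, with no adjusted p under 0.753. The median of 26831 reads assigned to Igfbp7-202 makes the counting error small beside the spread between animals. That number includes reads of exons shared with Igfbp7-201, and how those were divided is not stated. The error of that division is not known.

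**Figure D4:**
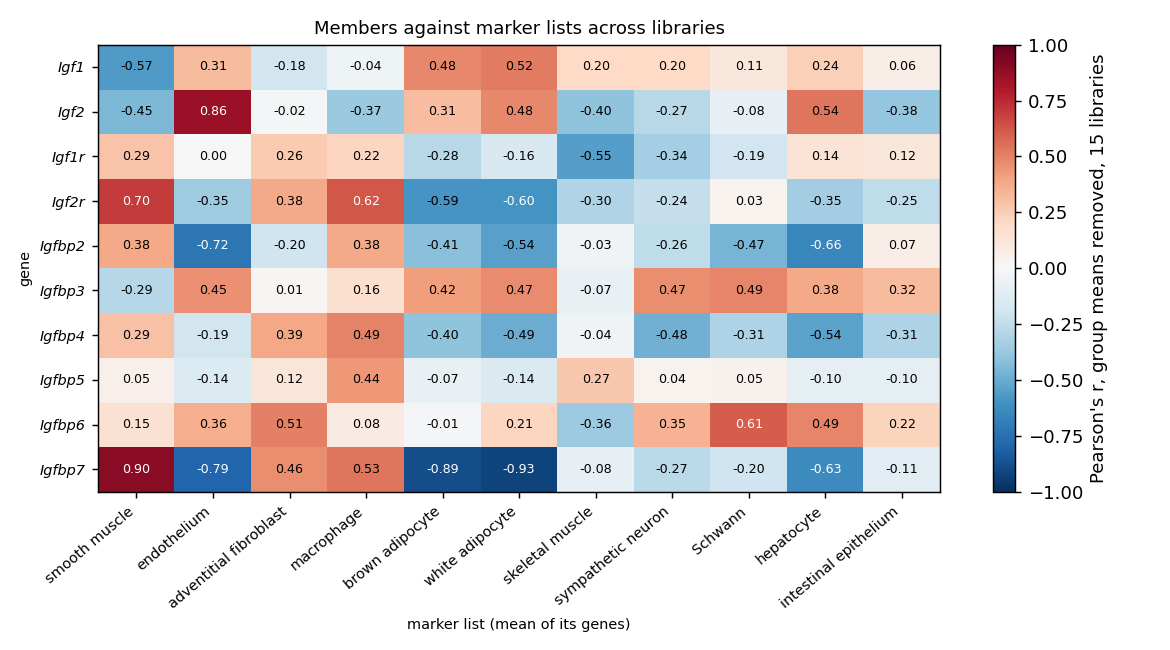
Pearson's r over 15 libraries, group means removed, between log2(FPKM + 1) of each member (rows) and the mean of each marker list (columns), on a colour scale from -1 to 1. Igfbp7 has the values farthest from 0, 0.90 with smooth muscle and -0.93 with white adipocyte genes; Igf2 follows endothelium at 0.86.

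Genes whose levels ran closest to each member were sought among all tested genes, as the 3 with the highest r over the 15 libraries with group means removed. For Igfbp7 these were Bgn (r = 0.98), which codes for the matrix proteoglycan biglycan, Twsg1 (0.97), a BMP-binding protein, and Sod3 (0.97), the extracellular superoxide dismutase. For Igfbp6 they were Rnase4 (0.96), Gpnmb (0.94) and Selenop (0.92), the plasma carrier of selenium. For Igf2r they were Rbpj (0.93), the DNA-binding partner of Notch, Tbc1d10b (0.93) and Pcdh7 (0.92). The other members reached less: the closest genes were Pigt for Igfbp5 (0.90), Mcm4 for Igfbp4 (0.90), Gm10638 for Igf2 (0.90), Ankrd13c for Igfbp3 (0.90), Gm14434 for Igf1 (0.87), Sfswap for Igfbp2 (0.86) and Unc119b for Igf1r (0.84). Each is the highest of 12644 values over 15 points that share library makeup, and is a description. Between members, r was 0.69 for Igf2r with Igfbp7 and 0.62 for Igfbp2 with Igfbp7 and for Igfbp3 with Igfbp6. The lowest were -0.59 for Igf1 with Igf1r, -0.54 for Igf2 with Igfbp7 and with Igfbp2, and -0.53 for Igf1 with Igfbp7.

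The wider pathway was read through 5 lists, and none of the 50 tested genes in them passed in any comparison. At an unadjusted p under 0.05, beside 4.88%, 7.94% and 8.37% of all tested genes, the counts in the order of comparisons used above were as follows. The 8 protease and carrier genes had 0, then 2 higher and 1 lower, then 1 lower. The 6 growth hormone genes had 1 higher, then 1 lower, then 0. The 10 receptor partners had 0, 0 and 2 lower. The 22 PI3K genes had 2 lower, then 1 higher and 4 lower, then 3 lower, and the 4 genes of the Igf2 list had 0 in each. Of 13 proteases, inhibitors and carriers of binding proteins, 8 were tested, and the most abundant were Ctsd, the lysosomal protease cathepsin D, at a mean of 325 FPKM, and Htra1, a secreted serine protease that cleaves binding proteins, at 175. Ctsd was at 311 ± 97.6 FPKM in WT saline, 262 ± 99.5 in WT Ang II and 401 ± 48.1 in the KO Ang II group (SD, n = 5), a difference of 0.70 between the Ang II groups (unadjusted p = 0.0196, adjusted p = 0.622 in limma). Htra1 differed by 0.33 (WT Ang II minus WT saline) and -0.21 (KO Ang II minus WT Ang II). Pappa, Pappa2 and Igfals, the last of which codes for the partner of IGFBP3 in blood, averaged 0.225, 0.797 and 0.755 FPKM and were not tested.

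All 6 genes of the growth hormone axis were tested, led by the receptor gene Ghr (17.1 FPKM) and the transcription factor gene Stat5b (16.5), whose differences lay between -0.08 and 0.12. Of the 10 receptor partners and substrates, all tested, the highest were Ptpn11, which codes for the phosphatase SHP2, at 47.9 FPKM, and the adaptor gene Shc1 at 39.9. Ptpn11 differed by -0.37 between KO Ang II and WT saline (unadjusted p = 0.0340, adjusted p = 0.555). All 22 genes of the PI3K, AKT, mTOR and FOXO list were tested, with median differences of 0.03, -0.09 and -0.08 in the 3 comparisons. The highest of them, Akt1 (67.7 FPKM) and Rheb (53.4), differed by 0.08 and 0.10 for WT Ang II minus WT saline and by -0.14 and -0.12 for KO Ang II minus WT Ang II. Chosen after its values were seen, the kinase gene Akt2 had the smallest p of that list between the Ang II groups, with a difference of 0.58 (unadjusted p = 0.00233, adjusted p = 0.584).

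Of 9 genes that are imprinted, lie at the Igf2 locus or code for proteins that bind its mRNA, 4 were tested. Peg3, an imprinted zinc finger gene, was at 4.06 ± 3.63 FPKM in WT saline, 5.83 ± 2.83 in WT Ang II and 10.3 ± 6.29 in the KO Ang II group, with a difference of 1.09 for KO Ang II minus WT saline (adjusted p = 0.7103 in limma). Cdkn1c, an imprinted inhibitor of the cell cycle, averaged 2.41 FPKM. H19, the imprinted RNA that shares its enhancers with Igf2, averaged 0.840 FPKM and was below the filter.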

How the data were processed

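RNA from abdominal aorta was extracted with TRIzol and made into NEBNext Ultra libraries, per the labels' protocols, and each library is 1 animal, so p-values measure the spread between animals. The deposited values are FPKM per transcript, computed by the authors. The submitters' processing notes name bcl2fastq, FastQC, fastp and mm10; the aligner, the quantifier and whether strand was used are not given in the sources read. The values fell on whole reads for 98.7% to 99.1% of values below 50 reads (tolerance 0.05), which gave the depth.

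Of Ensembl transcripts, 32618 of 32654 in the WT tables and 32908 of 32945 in the KO Ang II table matched GENCODE M21 on GRCm38. Transcripts the tables name MERGE, 12.2% to 15.8% of each library's FPKM, were assigned to no gene. FPKM were summed per gene, with unlisted transcripts at 0. Tested were the 12645 genes present in both sets of tables, and the 20766 transcripts present in all 15 libraries, with a mean of at least 1 FPKM.

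Limma 3.58.1 in R 4.3.3 (trend and robust options) was fitted to log2(FPKM + 1) over all 3 groups, with Benjamini-Hochberg adjustment. The pseudocount of 1 shrinks differences of low genes such as Igf1r. Tables and figures used Python 3.11.15, pandas 2.3.3, numpy 2.4.6, scipy 1.17.1 and matplotlib 3.10.9. The fit was tested on simulated data, with changes put only into genes of higher level and smaller spread. That test does not cover low members such as Igf1r and Igf1. The planned count model was not used, since the tables hold FPKM.

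The members and lists were chosen with earlier results of these data known. Named were all 10 members, their transcripts with a mean of at least 1 FPKM, the 3 most alike genes per member, and the 2 highest genes per pathway list. Other named transcripts, the shares, sequences and motifs were chosen after values were seen. Alternatives changed the pseudocount, filter, scaling, weights, libraries, covariates and unlisted transcripts. The description of the KO saline samples calls them WT, against their title and genotype, and they were left out.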

Additional observations from a re-analysis of the deposited data

Results flagged for a closer look

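Single libraries stood apart from the other 4 of their group in 7 of 66 groups examined (gene levels, transcript levels and shares, by Dixon's test at 95%, whose critical value for 5 samples is 0.71). Chance gives about 1 in 20 such groups, and values of a gene, its transcripts and their shares are not independent. KOAngII612 had 144.7 FPKM of Igfbp4 beside 48.9 to 67.2 in the other 4, and 172.6 FPKM of Igfbp5 beside 90.5 to 106.6. WTAng_II536 had 4.24 FPKM of Igf2-201 beside 1.06 to 1.52. KOAngII628 had 6.23 FPKM of Igf2-204 beside 0 to 1.52, which was 65.6% of its Igf2 beside 0 to 16.1%. Igf2-204 was also 85.7% of Igf2 in WTAng_II519 beside 22.8% to 38.6%. WTNS_373 had 126.1 FPKM of Igfbp7-202 beside 343.8 to 386.7, and it was the library with the most brown adipocyte RNA.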

How the results depend on the processing

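None of 1314 alternative values of 51 member differences passed the threshold. The smallest adjusted p in limma was 0.131, for Igf1r in KO Ang II minus WT Ang II with array weights. That was also the smallest over all 12645 genes in that fit, of which 2712 had an unadjusted p under 0.05. The direction changed in 76 of the 1314 values, 44 of which left out 1 library, and the cause was not tested.

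With brown adipocyte, skeletal muscle and sympathetic neuron marker means as covariates, WT Ang II minus WT saline became -0.15 for Igfbp4, 0.20 for Igf1, 0.31 for Igfbp3, -0.10 for Igf2r, 0.20 for Igf1-202, 0.19 for Igf2-205 and -0.19 for Igfbp7-202. In the same fit KO Ang II minus WT Ang II became 0.10 for Igfbp4, 0.076 for Igf2r, -0.37 for Igf1-202 and 0.036 for Igfbp7-202, and KO Ang II minus WT saline -0.025 for Igf2r and -0.027 for Igfbp7. Without the animals numbered below 500, WT Ang II minus WT saline became -0.094 for Igf2r, 0.31 for Igf2 and -0.12 for Igfbp7-202. There the difference between the Ang II groups, KO minus WT, became 0.060 for Igf2r and -0.27 for Igf1-202, and KO Ang II minus WT saline -0.034 for Igf2r, -0.12 for Igfbp7, 0.23 for Igf2, -0.023 for Igfbp7-201 and 0.53 for Igf2-204. With array weights, KO Ang II minus WT Ang II became -0.20 for Igfbp2 and 0.016 for Igf2, and KO Ang II minus WT saline -0.11 for Igf2r, -0.18 for Igfbp7 and -0.023 for Igfbp7-201. Without WTAngII580 and WTAngII581, Igf2 was at 0.40 in WT Ang II minus WT saline. With median ratio scaling, Igf2r was at 0.00051 in KO Ang II minus WT Ang II. Igf1 in KO Ang II minus WT saline was -0.0079 from transcripts listed in all 15 libraries and -0.015 with unlisted transcripts at 0.5 FPKM.

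Leaving out 1 library at a time, the differences that changed direction ran as follows. WT Ang II minus WT saline ran from -0.058 to 0.39 for Igfbp4, -0.37 to 0.034 for Igf1, -0.21 to 0.31 for Igfbp3, -0.038 to 0.21 for Igf2r, -0.34 to 0.21 for Igf2, -0.58 to 0.23 for Igf2-205 and -0.11 to 0.31 for Igfbp7-202. Between the Ang II groups, KO minus WT, they ran from -0.47 to 0.11 for Igfbp3, -0.12 to 0.060 for Igf2r, -0.11 to 0.16 for Igfbp5, -0.26 to 0.36 for Igfbp2, -0.39 to 0.17 for Igf2, -0.27 to 0.32 for Igf1-202 and -0.67 to 0.13 for Igf2-205. KO Ang II minus WT saline ran from -0.11 to 0.32 for Igf1, -0.47 to 0.080 for Igfbp3, -0.058 to 0.19 for Igf2r, -0.15 to 0.11 for Igfbp7, -0.36 to 0.044 for Igf2 and -0.030 to 0.19 for Igfbp7-201.

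The number of genes that passed was 0, 0 and 13 in the order of comparisons used above, and ran from 0 to 1, 0 to 7 and 7 to 15 without 1 library. Between the Ang II groups it was 15 without WTAngII580 and WTAngII581. Between KO Ang II and WT saline it was 21 without those libraries, 30 with array weights, and 0 with a filter of 5 FPKM, without animals below 500, or with the covariates. The number of transcripts was 2, 1 and 15, and ran from 0 to 4, 0 to 5 and 1 to 17 without 1 library. For WT Ang II minus WT saline it was 6 without WTAngII580 and WTAngII581, 5 with array weights, 1 with the filter of 5, 1 without animals below 500 and 0 with the covariates. Between the Ang II groups it was 18 without those libraries, 2 with a pseudocount of 0.1, and 0 with the filter, without animals below 500, or with the covariates. Between KO Ang II and WT saline it was 6 with the pseudocount, 1 with the filter, 1 without animals below 500 and 0 with the covariates.

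Members with a mean under 5 FPKM have no value under the stricter filter. No paired analysis was possible because the numbers in the titles are animal numbers, none of which occurs in 2 groups. Low transcripts such as Igf1-206, with 0 to 60 reads a library, are limited by depth, while the spread between animals limits the abundant members.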
